A study of Saccharomyces cerevisiae with 18 samples.

Results

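The promoters of 52 genes of amino acid synthesis were examined in budding yeast passing through the yeast metabolic cycle, in which a culture in a fermenter alternates between respiration and reductive phases. Each gene was represented by the strongest ATAC-seq peak (highest mean CPM, counts scaled to the library's total) lying within 500 bp of its 5' end, taken as the start of the coding gene model in the R64 genome. A peak was found for 36 of the 52 genes, on 36 distinct peaks of the 2086 in the table. These comprised 5 arginine, 5 histidine, 9 branched chain, 7 aromatic, 6 aspartate family, and 4 glutamate and proline genes. ATAC-seq measures chromatin accessibility through a transposase that inserts sequencing adapters into open DNA. The labels give 18 time points, 1 library each, and put time points 1 to 5 and 16 to 18 in Reductive Charging, 6 to 10 in Oxidative and 11 to 15 in Reductive Building. Every library came from fixed cells of the fermenter culture, no strain or mutation is named in the labels, and the libraries of a phase are different time points, so p-values measure the spread between time points. Collection took place in 2 batches that the labels do not assign to libraries, so batch and phase cannot be told apart.

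Amino acid biosynthesis in yeast is under general amino acid control, in which the transcription factor Gcn4 activates genes of nearly every pathway when an amino acid is short. Single pathways have further regulators, among them the ArgR complex for arginine, Leu3 for the branched chain amino acids, and Gln3 and Gat1 for the genes of nitrogen assimilation. The glutamate and glutamine enzymes supply the amino groups for all the other pathways. In the metabolic cycle, genes for growth and protein synthesis are known to have their RNA peak in the Oxidative phase, and accessibility was compared between phases to ask whether the promoters of these pathways open and close with it.

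The centres of all 36 peaks lay upstream of the gene they represent, at a median of 344 bp, and 18 of the 36 peaks overlapped the 5' end itself. The median peak was 604.5 bp long, from 200 bp at THR4 to 1516 bp at ILV3, against 614.5 bp for the 1766 nuclear peaks linked to any coding gene. A median of 14.1% of a peak lay over coding sequence, 9 peaks lay over none, and 9 lay over coding sequence for more than 50% of their length. Of the 36 peaks, 16 were also within 500 bp of the 5' end of another gene, 12 of them on the opposite strand. The table cannot assign the accessibility of such a peak to one gene or the other. LEU4 shared its peak with MET4, ASN1 with NOC4, TRP1 with SOK1 and GLT1 with UGA3.

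No peak within 500 bp was found for 16 genes, which are named here and left out of every count below. They were ARG2, ARG4, HIS3, HIS7, LEU9, ILV1, TRP2, TRP5, ARO3, ARO7, TYR1, PHA2, THR1, PRO2, PRO3 and GCN4. For ARO3, GCN4, HIS3 and PRO3 the nearest peak was 542, 572, 641 and 731 bp away, and for the other 12 it was beyond 1000 bp, up to 10144 bp at ARG2. The share of genes with a peak was 69.2%, against 44.6% of the 6002 nuclear coding genes.

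Values were compared in the 13 libraries in which at most 10% of nuclear peaks held no count, called well-covered here. These were 6 Reductive Charging libraries (time points 1 to 5 and 17), 5 Oxidative libraries (6 to 10) and 2 Reductive Building libraries (12 and 14), with 6372179 to 29314373 counts each. The other 5 libraries held 21254 to 12826108 counts, and at time points 11, 13, 15, 16 and 18 the number of the 36 peaks without a count was 2, 7, 22, 32 and 5. Values are given as normalised CPM, which is CPM after TMM scaling over the 13 libraries. The lowest count behind any such value was 3, at HOM6, and a count of 0 at time point 16 would still have allowed 141 CPM (3 counts). The 36 peaks together held 2.29% ± 0.09 of nuclear counts in Reductive Charging (SD, n = 6), 2.40% ± 0.09 in Oxidative (n = 5) and 2.36% ± 0.36 in Reductive Building (n = 2). The share taken by the whole set thus differed between phases by about its spread. A change in the share of cells with an open promoter and a change in how open it is in each cell cannot be told apart in such bulk libraries.

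The peaks of GDH1 and GLN1 were the most accessible of the set. Per kb of peak, GDH1, the NADP-dependent glutamate dehydrogenase that fixes ammonium, stood at a level of 1016 normalised CPM, and GLN1, the glutamine synthetase, at 916. The most accessible member of each other pathway was CPA1 (a carbamoyl phosphate synthetase subunit, 780 per kb) for arginine, LEU4 (the first committed enzyme of leucine synthesis, 689) for the branched chain amino acids, HIS4 (a multifunctional histidine enzyme, 534), ASN1 (an asparagine synthetase, 463) for the aspartate family and TRP1 (phosphoribosylanthranilate isomerase, 188) for the aromatic pathway. The lowest levels were those of PRO1 (34.0 per kb), which encodes the first enzyme of proline synthesis, TRP3 (41.2), ARO1 (50.5) and BAT1 (56.2). All 7 aromatic peaks were therefore below the top member of every other pathway. The median level of the 36 was 136 per kb, against 105 for all nuclear promoter peaks, and 23 of the 36 were above that value.

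The members also differed in how much they varied from library to library. The standard deviation of log2 normalised CPM over the 13 libraries had a median of 0.51 among the 36 peaks, against 0.62 over nuclear promoter peaks. It was under 0.3 for LEU4 (0.17), GDH1 (0.19), GLN1 (0.23), ASN1 (0.24), LEU2 (0.25) and CPA1 (0.26). It was above 1 for HOM6 (1.97), THR4 (1.45), PRO1 (1.41), TRP4 (1.32), HOM3 (1.27), TRP3 (1.22) and BAT1 (1.07), whose levels were all under 100 per kb. In the map of relative accessibility the low-level peaks carry most of the strong colours, above all at time point 17.

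**Figure D1:**
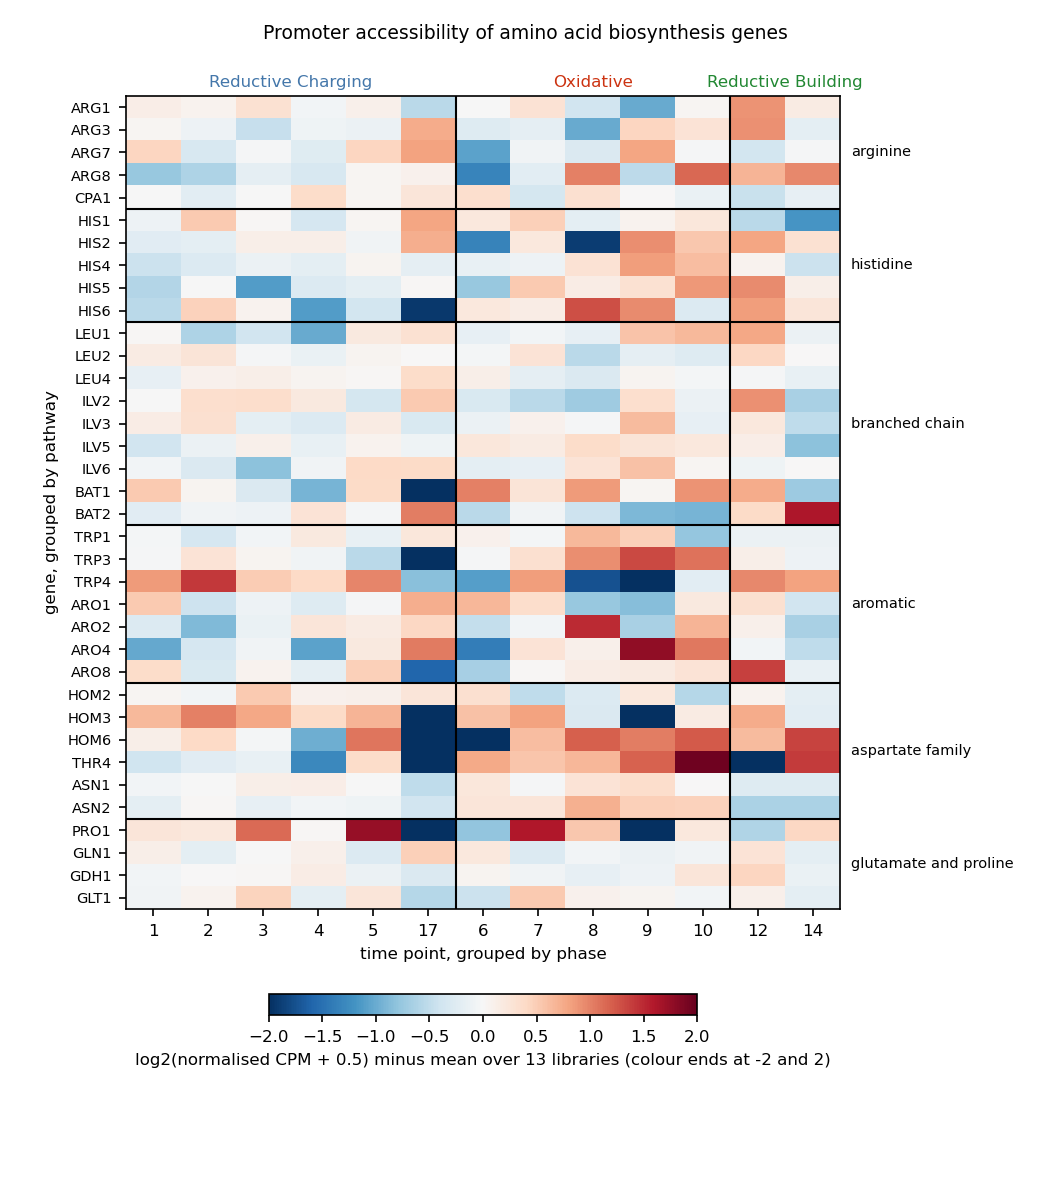
Relative accessibility of the 36 promoter peaks (rows, grouped by pathway) in the 13 well-covered libraries (columns, time points grouped by phase). Colour is log2(normalised CPM + 0.5) minus its mean over the 13 libraries, cut off at -2 and 2. HOM6, THR4, HOM3, TRP3, BAT1 and PRO1 are dark blue at time point 17, and BAT2 is dark red at time point 14.

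Across pathways, the aspartate family promoters had their highest phase mean of relative accessibility in Oxidative libraries (0.39). The histidine and arginine promoters had theirs in Reductive Building (0.46 and 0.33, SD 0.48 and 0.50, n = 2). Each pathway was summarised in each library by the median of its peaks' log2 levels relative to their own means over the 13 libraries. For the 6 aspartate family peaks this median ran from 0.28 to 0.49 in the 5 Oxidative libraries, was -0.10 and -0.20 at Reductive Building time points 12 and 14, lay between -0.01 and 0.26 at time points 1 to 5 and was -1.53 at time point 17. All 5 Oxidative libraries were above the other 8. For the 5 histidine peaks it ran from -0.15 to 0.84 in Oxidative libraries, from -0.43 to 0.03 in Reductive Charging and was 0.80 and 0.11 in Reductive Building. For the 5 arginine peaks it ran from -0.29 to 0.05 in Oxidative, from -0.20 to 0.25 in Reductive Charging and was 0.69 at time point 12 but -0.02 at time point 14. The groups overlapped for histidine and arginine. Their shares of nuclear counts were not highest in Reductive Building. In Reductive Charging, Oxidative and Reductive Building, the histidine peaks held 0.169%, 0.230% and 0.171% of these counts. The arginine peaks held 0.344%, 0.344% and 0.339%. The branched chain, aromatic, and glutamate and proline medians overlapped between phases too, with phase means from -0.02 to 0.12, from -0.01 to 0.08 and from 0.00 to 0.01.

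**Figure D2:**
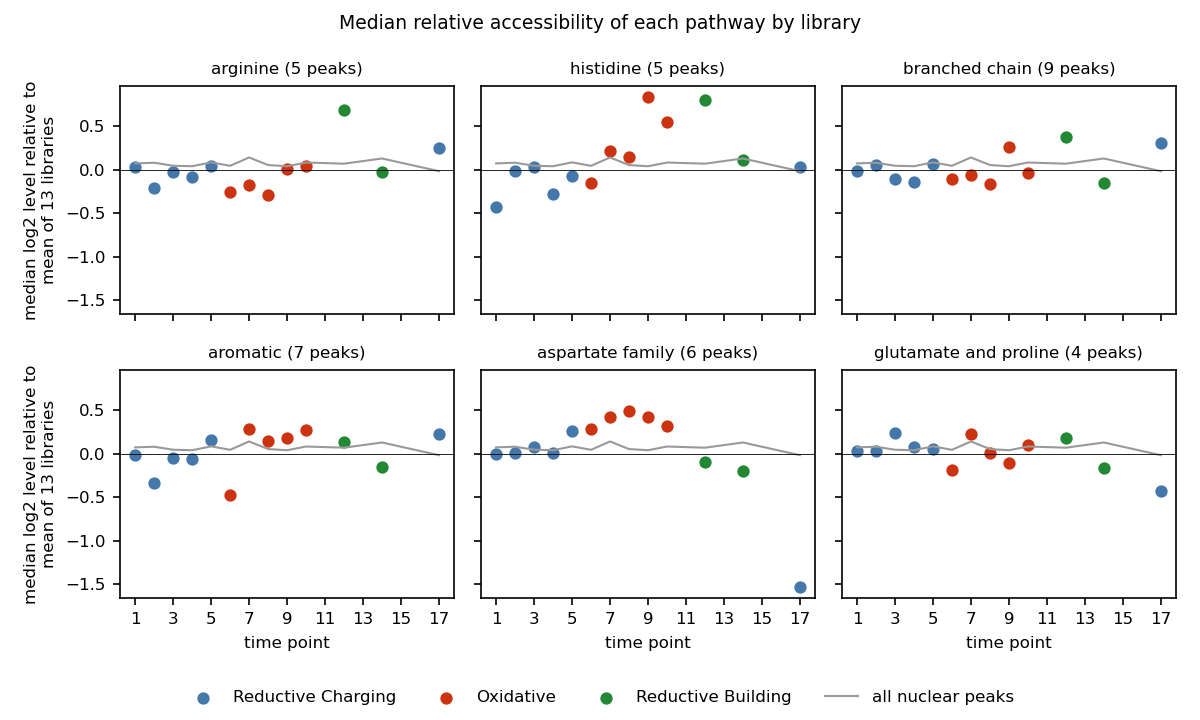
Median log2 level of each pathway's peaks relative to their mean over the 13 well-covered libraries, by time point. Points are libraries coloured by phase, and the grey line is the same median over all nuclear peaks. The aspartate family is above the line at all 5 Oxidative time points, from 0.28 to 0.49, and at -1.53 at time point 17.

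Time point 17, the only well-covered library of late Reductive Charging, stood apart for weak peaks in general. The 442 nuclear promoter peaks of lowest level had a median relative level of -0.89 there, and the 442 of highest level 0.25. Of the 36 member peaks, 5 belonged to the former group and 12 to the latter. At time point 17, 9 member peaks were below all other 12 libraries, against 24.01% of nuclear promoter peaks, and 5 were above all of them, against 18.1%. The part of this library in the pathway values was not tested beyond leaving it out. Within the remaining libraries, the aspartate family values of time points 1 to 5 were still all below those of the Oxidative libraries. The nearest were 0.26 at time point 5 and 0.28 at Oxidative time point 6. In time points 1 to 7 alone, the median log2 fold change of the 6 peaks from Reductive Charging to Oxidative was 0.03, with 3 above 0 and 3 below.

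By the phase in which its mean was highest, 14 of the 36 peaks belonged to Oxidative, 14 to Reductive Building and 8 to Reductive Charging. Over all nuclear promoter peaks the same shares were 34.0%, 37.5% and 28.5%, close to the 38.9%, 38.9% and 22.2% of the members. None of the 5 arginine peaks had its highest mean in Oxidative, against 4 of 7 aromatic, 4 of 9 branched chain, 3 of 6 aspartate family, 2 of 5 histidine and 1 of 4 glutamate and proline peaks.

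Tested peak by peak with edgeR's quasi-likelihood test, none of the 36 passed an adjusted p of 0.05 between Oxidative and Reductive Charging, where 58 of 2086 peaks passed (2.78%). The calls over all peaks were 1.49% higher and 1.29% lower in Oxidative. An unadjusted p under 0.05 was found for 5 of the 36, against 344 of 2086 peaks, namely HIS4, HIS6, THR4 and ASN2 with higher and BAT2 with lower values in Oxidative. DESeq2 called 1 of the 36, where it called 128 of 2086 peaks, and limma-voom called 0 of the 36. Between Reductive Building and Oxidative 2 of 36 passed, BAT2 higher and ASN2 lower in Reductive Building, where 31 of 2086 peaks passed (1.49%, of which 0.575% higher and 0.911% lower in Reductive Building). Between Reductive Charging and Reductive Building edgeR called 0 of 36, where 30 of 2086 peaks passed (1.44%, of which 0.767% higher and 0.671% lower in Reductive Charging). In that comparison 4 of the 36 had an unadjusted p under 0.05, against 288 of 2086 peaks. DESeq2 called 1 of the 36 there and 55 of 2086 peaks, and limma-voom called 0 of the 36 and 16 of 2086 peaks. With all 18 libraries edgeR called no peak in any of the 3 comparisons, while limma-voom with library quality weights called 100, 0 and 0 peaks and none of the 36. The median log2 fold change of the 36 was 0.07 from Reductive Charging to Oxidative, -0.03 from Oxidative to Reductive Building and -0.02 for Reductive Charging minus Reductive Building, and that of all peaks was 0.02, 0.02 and -0.03.

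**Figure D3:**
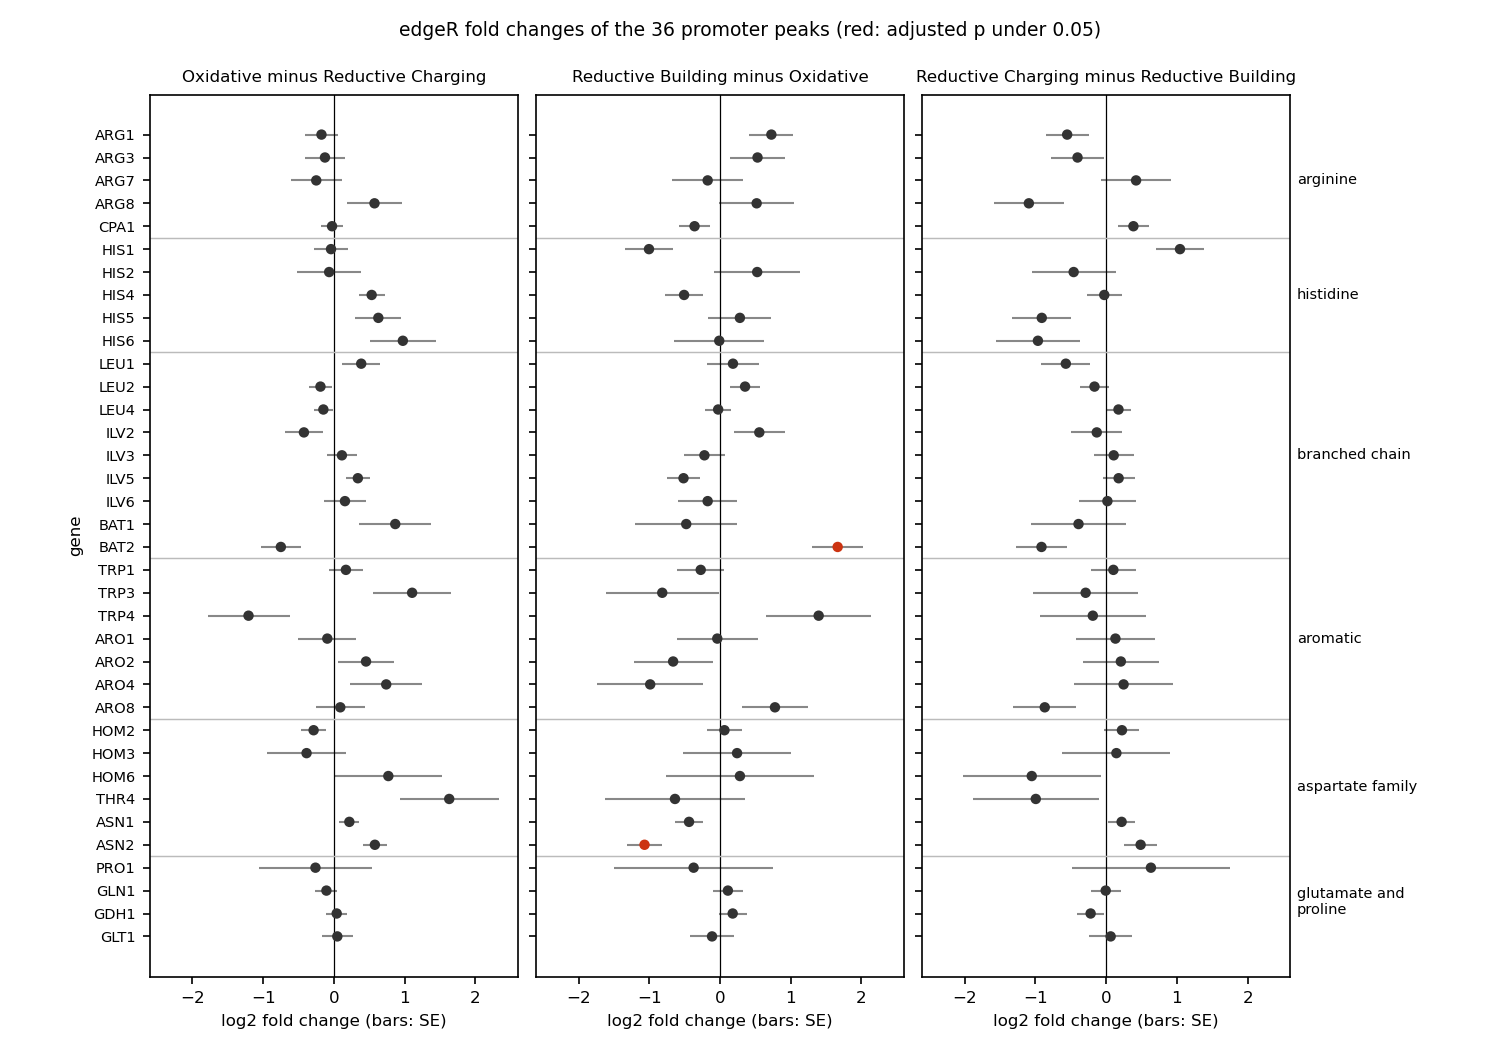
edgeR log2 fold changes of the 36 promoter peaks between phases in the 13 well-covered libraries, grouped by pathway. Points are estimates, bars their standard errors, and red points the 2 results with an adjusted p under 0.05, BAT2 at 1.66 and ASN2 at -1.07, both for Reductive Building minus Oxidative.

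The pathways, as medians of their fold changes relative to the median of all peaks, differed most in the following values. From Reductive Charging to Oxidative, histidine stood at 0.52, the aspartate family at 0.38, aromatic at 0.15, branched chain at 0.10, glutamate and proline at -0.05 and arginine at -0.14. From Oxidative to Reductive Building, arginine stood at 0.50, glutamate and proline at -0.02, histidine at -0.03, branched chain at -0.05, the aspartate family at -0.21 and aromatic at -0.29. For Reductive Charging minus Reductive Building, the aspartate family stood at 0.21, aromatic at 0.13, glutamate and proline at 0.06, branched chain at -0.10, arginine at -0.38 and histidine at -0.43. The aspartate family value from Reductive Charging to Oxidative was 0.02 in time points 1 to 7 alone. The arginine value from Oxidative to Reductive Building was 0.05 without time point 12, and also 0.05 in time points 8 to 18 alone. With time points 1 to 7 against 8 to 18 as a covariate, every pathway but the aromatic one changed sign for Reductive Charging minus Reductive Building, to 0.08 for arginine, 0.18 for histidine, 0.19 for branched chain, -0.40 for the aspartate family and -0.17 for glutamate and proline. In the later part, which holds both Reductive Building libraries, time point 17 was the only Reductive Charging library of that fit. Leaving out 1 library moved the Oxidative minus Reductive Charging value of the branched chain peaks from -0.0754 to 0.19, of the aromatic peaks from 0.0299 to 0.34, and of the glutamate and proline peaks from -0.0854 to 0.0398. These are medians of 4 to 9 peaks and were not tested.

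Groups whose values did not overlap at all were also counted. From Reductive Charging to Oxidative this held for 3 of 36 members, ILV5, THR4 and ASN2, all higher in Oxidative, where 90 of 2086 peaks did so (4.31%). Between Oxidative and Reductive Building it held for 5 of 36, with BAT2 higher and HIS1, ILV5, ASN1 and ASN2 lower in Reductive Building, where 19.8% of all peaks did so. Between Reductive Charging and Reductive Building it held for 4 of 36, with HIS1 and ASN2 higher and ARG8 and HIS5 lower in Reductive Charging, where 19.6% of all peaks did so. ASN2 alone of the 36 was separated in all 3 comparisons, and how many of all peaks were so was not counted.

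ASN2 encodes one of the paralogous asparagine synthetases, which make asparagine from aspartate. Its peak, on chromosome VII from 738916 to 739971, overlaps its own 5' end at 739944 and no other gene is linked to it. It measured 128, 149, 131, 141, 138 and 112 normalised CPM at Reductive Charging time points 1 to 5 and 17, then 174, 174, 241, 206 and 203 at Oxidative time points 6 to 10, and 95.2 and 95.0 at Reductive Building time points 12 and 14. Every Oxidative value was above every Reductive Charging value, and both Reductive Building values were below all the others. The log2 fold change from Oxidative to Reductive Building was -1.07 ± 0.25 (SE, edgeR adjusted p = 0.0373). From Reductive Charging to Oxidative it was 0.58 ± 0.17 (edgeR adjusted p = 0.0698), and Reductive Charging minus Reductive Building was 0.49 ± 0.23 (edgeR adjusted p = 0.364). Of the 5 poorly covered libraries, Reductive Building time points 11, 13 and 15 held 966, 9 and 0 counts of this peak and Reductive Charging time points 16 and 18 held 0 and 236.

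The Reductive Building call of ASN2 was near the threshold. Leaving out 1 library kept it in 4 of 13 fits, and the other 9, each without one of time points 1, 2, 4, 5, 8, 9, 10, 12 or 14, gave edgeR adjusted p from 0.0517 to 0.143 with log2 fold changes from -0.99 to -1.15. Over all 25 alternatives the fold change kept its sign, with adjusted p from 0.000690 (DESeq2) to 0.963 (edgeR with all 18 libraries), and 11 passed.

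ASN1, the other asparagine synthetase, has a peak on chromosome XVI from 821685 to 822780 that is shared with NOC4, a gene of ribosome assembly on the opposite strand. Its normalised CPM was 482, 499, 546, 550, 497 and 351 in Reductive Charging, 588, 493, 607, 643 and 506 in Oxidative and 418 and 420 in Reductive Building. Reductive Building lay below all 5 Oxidative values and, with the exception of time point 17, below Reductive Charging. Reductive Building minus Oxidative was -0.44 ± 0.20 (SE, edgeR adjusted p = 0.304), so the difference did not pass after adjustment. Per kb, ASN1 (463) was over 3 times as accessible as ASN2 (145).

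**Figure D4:**
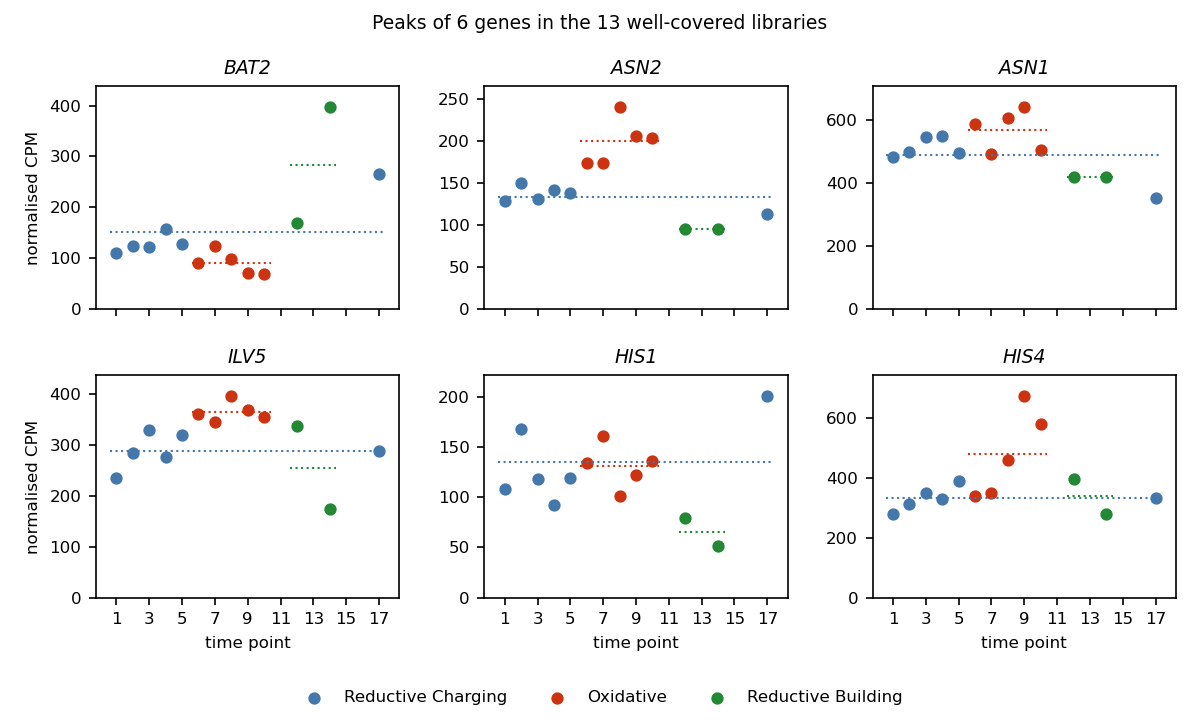
Normalised CPM of the peaks of BAT2, ASN2, ASN1, ILV5, HIS1 and HIS4 by time point in the 13 well-covered libraries. Points are libraries coloured by phase and dotted lines are phase means. ASN2 lies between 174 and 241 at the Oxidative time points and near 95 at both Reductive Building time points, and BAT2 reaches 398 at time point 14.

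The rest of the aspartate family, which leads from aspartate to homoserine and threonine, had weak and scattered peaks apart from HOM2. THR4, the threonine synthase, measured 7.64, 8.65, 9.16, 3.88, 13.3 and 1.62 normalised CPM in Reductive Charging, 17.6, 15.3, 16.5, 23.8 and 40.9 in Oxidative and 1.48 and 27.9 in Reductive Building. All Oxidative values were above all Reductive Charging values, while the 2 Reductive Building libraries lay at opposite ends. Oxidative minus Reductive Charging was 1.63 ± 0.70 (SE, edgeR adjusted p = 0.250) on a median of 157 counts per library. HOM6, the homoserine dehydrogenase, ranged from 0.19 at time point 17 to 41.5 at time point 14, and HOM3, the aspartate kinase at the head of the pathway, from 5.56 at time point 17 to 77.3 at time point 2. HOM2, the next enzyme, measured 241 to 516 and differed by -0.29 ± 0.18 between Oxidative and Reductive Charging (edgeR adjusted p = 0.469). Its peak covers the promoters of several genes, CPR1 and RPA14 among them.

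Among the branched chain genes, the peak upstream of BAT2, the cytosolic aminotransferase that acts on leucine, isoleucine and valine, was more accessible in Reductive Building than in Oxidative. It lies on chromosome X from 704661 to 705663, ends 81 bp before the 5' end at 705744, and is shared with HMS2 on the same strand, with 61.0% of its length over coding sequence that is not that of BAT2. It measured 110, 123, 121, 157, 127 and 265 normalised CPM at Reductive Charging time points 1 to 5 and 17, 89.5, 124, 97.6, 69.4 and 67.6 in Oxidative, and 169 and 398 in Reductive Building. Both Reductive Building values were above all Oxidative values, and time point 17 was above all other Reductive Charging values and one of the Reductive Building values. The log2 fold change from Oxidative to Reductive Building was 1.66 ± 0.36 (SE, edgeR adjusted p = 0.0239). From Reductive Charging to Oxidative it was -0.75 ± 0.28 (edgeR adjusted p = 0.178), with overlapping groups. Poorly covered Reductive Building time points 11, 13 and 15 held 540, 134 and 319 counts of this peak, and Reductive Charging time points 16 and 18 held 0 and 726.

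The size of the BAT2 difference rested on Reductive Building time point 14. Without it the fold change was 0.84 and no longer called (edgeR adjusted p = 0.285), and without time point 12 it was 2.15 (edgeR adjusted p = 0.0175). Leaving out Oxidative time point 8, 9 or 10 gave edgeR adjusted p of 0.0538, 0.0663 and 0.0550. Over all 25 alternatives the sign held, with adjusted p from 0.00580 to 0.963, and 16 passed.

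BAT1, the mitochondrial counterpart of BAT2, had a weak peak of 3.36 to 53.7 normalised CPM. Its Oxidative minus Reductive Charging value was 0.87 ± 0.51 (SE, edgeR adjusted p = 0.416), opposite in sign to that of BAT2, although neither passed and the difference between them was not tested. ILV5, the acetohydroxyacid reductoisomerase of isoleucine and valine synthesis, has a peak shared with ATG33 and measured 235, 283, 329, 276, 320 and 288 in Reductive Charging, 360, 345, 397, 368 and 355 in Oxidative and 337 and 173 in Reductive Building. Its Oxidative values lay above all those of the other phases. The difference from Reductive Charging was 0.34 ± 0.17 (edgeR adjusted p = 0.317). The acetolactate synthase genes of the same pathway, ILV2 (catalytic subunit) and ILV6 (regulatory subunit), differed by -0.42 ± 0.27 and 0.16 ± 0.30 between Oxidative and Reductive Charging (edgeR adjusted p = 0.474 and 0.870). ILV3, the dihydroxyacid dehydratase, differed by 0.11 ± 0.21 (edgeR adjusted p = 0.862).

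In the leucine branch no peak separated any pair of phases, and LEU9 had no linked peak. LEU4, the isopropylmalate synthase, ranged from 637 to 1004 normalised CPM over the 13 libraries, the smallest relative spread of the 36 peaks, and LEU2, the isopropylmalate dehydrogenase, from 250 to 485. LEU1, the isomerase between them, ranged from 73.3 at time point 4 to 251 at time point 12, with all phases overlapping. The edgeR adjusted p of these 3 peaks was 0.460 or more in every comparison.

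In the histidine pathway the peaks did not move together. HIS4 (chromosome III from 68255 to 68986) measured 281, 312, 349, 329, 391 and 335 normalised CPM in Reductive Charging, 340, 351, 460, 676 and 582 in Oxidative and 399 and 279 in Reductive Building. The 3 later Oxidative time points were above all other libraries, and the 2 earlier ones within the Reductive Charging range. Oxidative minus Reductive Charging was 0.53 ± 0.19 (SE, edgeR adjusted p = 0.142). HIS1, the enzyme of the first step (peak on chromosome V from 265920 to 266427), measured 108, 168, 119, 92.6, 120 and 201 in Reductive Charging, 134, 161, 101, 122 and 136 in Oxidative and 79.5 and 51.2 in Reductive Building. Both Reductive Building values were the lowest of the 13. Reductive Charging minus Reductive Building was 1.04 ± 0.34 (edgeR adjusted p = 0.184, DESeq2 adjusted p = 0.0395, and from 0.0395 to 0.883 over 25 alternatives).

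HIS5, the histidinol-phosphate aminotransferase, was on the opposite side of that comparison. It measured 23.2 to 52.1 normalised CPM in Reductive Charging (median 43.2), 30.0 to 93.8 in Oxidative and 55.1 and 99.1 in Reductive Building, so both Reductive Building values were above all Reductive Charging values. The difference was -0.91 ± 0.42 (SE, edgeR adjusted p = 0.351). HIS6, an isomerase of the middle of the pathway, and HIS2, the histidinolphosphatase, had weaker peaks, with 0.98 ± 0.46 and -0.07 ± 0.45 for Oxidative minus Reductive Charging (edgeR adjusted p = 0.301 and 0.969). Oxidative minus Reductive Charging was thus above 0 for HIS4, HIS5 and HIS6 and slightly below 0 for HIS1 and HIS2. Single libraries could differ from this, as HIS2 had the highest of its 13 values, 66.2, at Oxidative time point 9.

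Among the arginine genes, ARG1 and ARG3 had their highest values at time point 12, as had LEU1, LEU2, ILV2, HIS5, ARO8 and GDH1 of other pathways. How many of all peaks had their highest value in this 1 library was not counted. ARG1, the argininosuccinate synthetase (peak on chromosome XV from 218440 to 219283), measured 189, 181, 213, 164, 185 and 118 normalised CPM in Reductive Charging, 170, 210, 132, 85.0 and 177 in Oxidative and 320 and 192 in Reductive Building. Only time point 12 stood above the range of the other phases. Reductive Building minus Oxidative was 0.73 ± 0.31 (SE, edgeR adjusted p = 0.274). ARG3, the ornithine carbamoyltransferase, measured 224 at time point 12, 104 at time point 14, 200.3 at time point 17 and 160.0 at time point 9. Reductive Building minus Oxidative was 0.53 ± 0.39 for it (SE, edgeR adjusted p = 0.554).

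ARG8, the mitochondrial acetylornithine aminotransferase, measured 29.4, 32.2, 43.8, 39.9, 51.2 and 53.1 normalised CPM in Reductive Charging, 19.6, 43.0, 101, 34.6 and 111 in Oxidative and 80.3 and 97.2 in Reductive Building. Reductive Building was above all of Reductive Charging, and Oxidative covered both. Reductive Charging minus Reductive Building was -1.09 ± 0.50 (SE, edgeR adjusted p = 0.351), and 0.07 with all 18 libraries. CPA1 measured 532 to 933 with no phase apart, and ARG7, the ornithine acetyltransferase, 18.1 to 67.8.

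The aromatic promoters differed in both directions, and none passed. TRP4, the anthranilate phosphoribosyltransferase, measured 44.2, 66.0, 35.0, 32.2, 48.3 and 13.5 normalised CPM in Reductive Charging, 11.0, 44.0, 6.94, 2.93 and 21.0 in Oxidative and 47.8 and 43.0 in Reductive Building. Its 4 lowest values were 3 Oxidative libraries and time point 17. Oxidative minus Reductive Charging was -1.21 ± 0.58 (SE, edgeR adjusted p = 0.310) and Reductive Building minus Oxidative 1.40 ± 0.74 (edgeR adjusted p = 0.387). TRP3, which takes part in the step before and a later step, differed the other way, with 1.11 ± 0.56 for Oxidative minus Reductive Charging (edgeR adjusted p = 0.331) on a peak 495 bp from its 5' end. That peak is shared with UBA1 and is the stronger of 2 peaks within 500 bp of TRP3.

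Of the genes of the shared chorismate pathway, ARO4, an entry enzyme, ranged from 10.9 to 100.5 normalised CPM within Oxidative alone, ARO2, the chorismate synthase, from 30.6 to 137, and ARO1, a multifunctional enzyme, from 15.0 to 44.1. Their Oxidative minus Reductive Charging values were 0.74 ± 0.51, 0.45 ± 0.39 and -0.09 ± 0.41 (SE, edgeR adjusted p = 0.526, 0.627 and 0.956). TRP1 measured 66.8 to 179, with both extremes in Oxidative. ARO8, an aromatic aminotransferase, was 195 at time point 12 and 24.8 to 105 in all other libraries. Reductive Charging minus Reductive Building for it was -0.87 ± 0.45 (edgeR adjusted p = 0.404), and 0.08 without time point 12.

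No nitrogen assimilation gene differed between phases past the threshold. GDH1 (peak on chromosome XV from 1043168 to 1044458) measured 1253, 1301, 1329, 1446, 1198 and 1069 normalised CPM in Reductive Charging, 1349, 1245, 1162, 1214 and 1538 in Oxidative and 1759 and 1189 in Reductive Building. The phases overlapped, with time point 12 the highest value. Reductive Building minus Oxidative was 0.18 ± 0.20 (SE, edgeR adjusted p = 0.752), and -0.13 without time point 12. GLN1 measured 725 to 1223 and differed by -0.11 ± 0.16 between Oxidative and Reductive Charging (edgeR adjusted p = 0.819). GLT1, the glutamate synthase that works with it, measured 83.9 to 178 with 0.05 ± 0.22 (edgeR adjusted p = 0.958). PRO1 ranged from 0.87 to 27.2, and its differences had standard errors of 0.80 or more.

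GCN4 itself, the activator of these pathways, had its nearest peak 572 bp from the coding start, on chromosome V from 140335 to 141695, and so is outside the 36. Yeast GCN4 has a long leader with upstream open reading frames, through which its translation is controlled. The peak measured 596 to 812 normalised CPM in Reductive Charging (median 731), 717, 802, 914, 935 and 1039 at Oxidative time points 6 to 10 and 650 and 773 in Reductive Building. The 3 later Oxidative time points were above all libraries of the other phases. Oxidative minus Reductive Charging was 0.29 ± 0.14 (SE, edgeR adjusted p = 0.294) and Reductive Building minus Oxidative -0.31 ± 0.19 (edgeR adjusted p = 0.481). HIS4 had the same 3 time points at its top, as had ASN2 and TRP3 among others. How many of all peaks did so was not counted, and a link to GCN4 was not tested.

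Other genes of amino acid metabolism gave a few calls. Of 17 further biosynthesis peaks 2 were higher in Oxidative than in Reductive Charging, where 1.49% of all peaks were. The peak of MET6 (methionine synthase), shared with IES5, was higher by 0.81 ± 0.19, and that of LYS12 (lysine synthesis), shared with RSM25, by 2.03 ± 0.45 (SE, edgeR adjusted p = 0.0426 for both). The median of the 17 was 0.32 in that comparison. Of 15 peaks of amino acid and ammonium permeases, MUP1, the high-affinity methionine permease, was higher in Oxidative than in Reductive Charging (0.64 ± 0.16, edgeR adjusted p = 0.0434) and lower in Reductive Building than in Oxidative, where 0.911% of all peaks were lower (-1.19 ± 0.24, edgeR adjusted p = 0.0196). MEP3, an ammonium permease, was lower in Reductive Building than in Oxidative (-1.38 ± 0.30, edgeR adjusted p = 0.0239) and than in Reductive Charging, where 0.767% of all peaks were called that way (Reductive Charging minus Reductive Building 1.20 ± 0.29, edgeR adjusted p = 0.0462). MUP1 measured 374 to 515 normalised CPM in Reductive Charging (median 420), 521 to 852 in Oxidative and 369 and 213 in Reductive Building, so that its Oxidative values lay above all others, as those of ASN2 did. In the 13 libraries without a covariate, edgeR called 0 of 6 peaks of pathway regulators and 0 of 9 of amino acid catabolism in any comparison. With time points 1 to 7 against 8 to 18 as a covariate, edgeR called 2 of the 9 catabolism peaks higher in Reductive Building than in Oxidative, where 1.92% of all peaks were higher. It also called 2 of the 15 permease peaks lower in Reductive Building than in Oxidative, where 2.4% of all peaks were lower. Between Oxidative and Reductive Charging that fit called none of the 2086 peaks, and so none of the further biosynthesis and permease peaks. On all 18 libraries none of these lists' peaks was called by edgeR.

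As a mark of the phases, the peak of the ribosomal protein gene RPL17B was lower in Reductive Building than in Oxidative by -1.52 ± 0.25 (SE, edgeR adjusted p = 0.00482) and than in Reductive Charging (Reductive Charging minus Reductive Building 1.14 ± 0.24, edgeR adjusted p = 0.0274). That peak is shared with ATG27, and the peak of POX1 with CHC1. POX1, of fatty acid oxidation, had -1.20 ± 0.38 for Oxidative minus Reductive Charging (edgeR adjusted p = 0.109) and 1.54 ± 0.49 for Reductive Building minus Oxidative (edgeR adjusted p = 0.112). No peak within 500 bp was found for the mark MRPL10.

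The scaling bears on the comparison of Oxidative with Reductive Charging. Mitochondrial peaks held 46.7% to 65.5% of counts in the 6 Reductive Charging libraries, 16.0% to 46.7% in the 5 Oxidative ones and 21.0% and 38.3% in the 2 of Reductive Building. Ribosomal DNA peaks held 12.5% to 25.1%, 20.5% to 40.5%, and 28.9% and 34.0% in the same order. In both cases the 2 Reductive Building values are those of time points 14 and 12. Scaling to the total count put the median of all peaks at 0.52 for Oxidative minus Reductive Charging and at -0.49 for Reductive Charging minus Reductive Building. The part of either share in these medians was not tested. With total-count scaling 3 of the 36, HIS4, ILV5 and ASN2, were called higher in Oxidative than in Reductive Charging, where 104 of 2086 peaks were. None of the 2086 peaks was called between Reductive Building and Oxidative.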

How the data were processed

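The deposited table holds unnormalised counts for 1 common peak list in 18 libraries. The submitters' processing notes name Trimmomatic, Bowtie2, MACS2 and the R64 build, without their roles. Tool versions, how reads were counted, whether insertion sites were shifted, how duplicate or repeat reads were treated and whether libraries were pooled for peak calling were not given in the sources used here. If duplicates were kept, floors cover counting error only. Peaks were linked to genes with the RefSeq gene table of R64 (strand from the systematic name). Promoter sequence was not used here. Differences were tested with edgeR 4.0.16 (filterByExpr, which removed 0 peaks; TMM; robust quasi-likelihood F test; R 4.3.3) on all 2086 peaks in the 13 well-covered libraries, with Benjamini-Hochberg adjustment over all peaks and a threshold of 0.05. Standard errors were derived from the F statistic, and the test was checked on simulated counts. DESeq2 1.42.0 and limma 3.58.1 were alternatives, and plots used matplotlib 3.10.9. The members, pathways, other lists, the 13 libraries and the split after time point 7 were chosen with earlier results of these data known. The rule for named genes took members past the threshold, the member with the smallest p of each pathway in each comparison, the most accessible member of each pathway, GCN4, the 3 marks and genes of other lists past the threshold; other members were described after their values were seen.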

Additional observations from a re-analysis of the deposited data

Results flagged for a closer look

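Of 28 groups of 5 or 6 libraries examined for a library far from the rest, 2 held one, and chance alone gives about 1 in 20. Both were Reductive Charging time point 17, the late library of a group whose other members were time points 1 to 5. At BAT2 it measured 264.7 normalised CPM, and the nearest other library of the phase 157. At ASN1 it measured 351.0, and the nearest other library 482. The library's position in the cycle and its coverage cannot be told apart here.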

How the results depend on the processing

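Fold changes of the named genes kept their direction and side of the threshold in 420 alternative values, lost a call in 23, gained one in 4 and turned in 9. The 420 include results that were not called to begin with. The calls for Reductive Building minus Oxidative passed in 16 of 25 alternatives for BAT2 and in 11 of 25 for ASN2. Calls of the whole table depended strongly on which libraries and tool were used. For Oxidative minus Reductive Charging 58 peaks passed with edgeR, 0 with edgeR on all 18 libraries, with libraries of at most 50% empty peaks or with time points 1 to 7 against 8 to 18 as a covariate, 114 with total-count scaling, 128 with DESeq2, 100 with limma-voom and quality weights on all 18 libraries, 3 in time points 1 to 7 and 95 in 8 to 18. For Reductive Building minus Oxidative 31 passed, 0 with edgeR on all 18 libraries, total-count scaling or limma-voom quality weights, 5 with libraries of at most 50% empty peaks, 104 with DESeq2, 62 with limma-voom, 90 with the covariate and 16 in time points 8 to 18. For Reductive Charging minus Reductive Building 30 passed, 0 with edgeR on all 18 libraries, limma-voom quality weights or time points 8 to 18, 2 with libraries of at most 50% empty peaks, 15 with total-count scaling, 55 with DESeq2, 16 with limma-voom and 4 with the covariate. Leaving out 1 library gave 4 to 119, 14 to 104 and 3 to 137. Where an alternative used fewer or poorer libraries its construction bears on the count, and otherwise the cause was not tested.

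Among the 36 members, the 0 calls between Oxidative and Reductive Charging became 3 with total-count scaling, 1 with DESeq2 (ASN2) and 1 in time points 8 to 18 (HOM6, where Reductive Charging is time point 17 alone with 3 counts). The 2 calls between Reductive Building and Oxidative became 0 with all 18 libraries, libraries of at most 50% empty peaks, total-count scaling, quality weights or time points 8 to 18, and 0 to 2 on leaving out 1 library. The 0 calls between Reductive Charging and Reductive Building became 1 with DESeq2 (HIS1). With all 18 libraries the median of all peaks was 0.14, -0.22 and 0.10 in the 3 comparisons. The pathway medians below are relative to that of all peaks.

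Pathway medians moved by more than their spread as follows. The spread is the within-phase SD of a pathway's library medians, pooled over phases, and moves within it are not listed. For the aspartate family it includes time point 17 at -1.53, with an SD of 0.66 in Reductive Charging. Its Oxidative minus Reductive Charging value therefore stayed within the spread, although it went from 0.38 to 0.02 in time points 1 to 7. Oxidative minus Reductive Charging: histidine 0.19 with links to 1000 bp; branched chain -0.11 with the covariate and -0.19 in time points 8 to 18, where the aspartate family was 1.48 and glutamate and proline 0.33. Reductive Building minus Oxidative: arginine -0.0337 with all 18 libraries, -0.0328 with at most 50% empty peaks, 0.18 with the covariate and 0.0498 in time points 8 to 18; histidine -0.78 with links to 1000 bp; branched chain 0.24 with all 18 and 0.28 with at most 50% empty peaks; aromatic 0.0449 and -0.55 likewise. Reductive Charging minus Reductive Building: with all 18 libraries arginine 0.10, branched chain -0.31 and aromatic -0.43; with at most 50% empty peaks arginine -0.10 and aromatic -0.27; with the covariate arginine 0.0843, histidine 0.18, branched chain 0.19, aspartate family -0.40, glutamate and proline -0.17; in time points 8 to 18 arginine 0.43, histidine 0.12, aromatic 0.47, aspartate family -1.55, glutamate and proline -0.36; and histidine 0.43 with links to 1000 bp. Leaving out 1 library moved arginine from 0.0486 to 0.61 and branched chain from -0.27 to 0.0892 in Reductive Building minus Oxidative, and in Reductive Charging minus Reductive Building arginine from -0.89 to 0.27, branched chain from -0.26 to 0.26, aromatic from -0.22 to 0.19 and glutamate and proline from -0.19 to 0.22.

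Directions turned for 9 values of named genes, none past the threshold. ARG8 in Oxidative minus Reductive Charging was -0.0109 with the covariate and -0.32 in time points 1 to 7, and 0.0714 in Reductive Charging minus Reductive Building with all 18 libraries. GLN1 in Oxidative minus Reductive Charging was 0.37 with total-count scaling, 0.0221 with quality weights and 0.0450 in time points 1 to 7. Leaving out 1 library gave GDH1 from -0.13 (without time point 12) to 0.35 in Reductive Building minus Oxidative and from -0.40 to 0.0906 (without time point 12) in Reductive Charging minus Reductive Building, and ARO8 in the latter from -1.36 to 0.0832 (without time point 12). No paired analysis was possible because the labels give no replicate numbers, only time points. Reductive Building had 2 well-covered and 3 poorly covered libraries.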
